A study of Mus musculus with 10 samples.

Results

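Vascular adhesion molecules and selectins are the surface proteins by which blood vessels catch passing leukocytes. The set held 9 genes of 35527 gene names on the arrays, taken by name: the selectins Selp and Sele, the immunoglobulin-type adhesion genes Vcam1, Icam1, Icam2, Alcam and Mcam, the junction gene F11r, and Selplg, the selectin ligand of leukocytes. Members were chosen by name, with earlier results of these data known, and 12 probes on the arrays carried these names. Leukocytes leave the blood in steps. Selectins on activated endothelium bind sugar-bearing ligands such as PSGL-1, the product of Selplg, and slow the cells to a roll. Integrins on the leukocyte then bind Icam1, Icam2 and Vcam1 and hold the cell, and junctional proteins such as F11r take part in its passage between endothelial cells. Resting arterial endothelium is known to carry little Sele and Vcam1, and both are classical targets of inflammatory cytokines.

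Aortas came from male C57BL/6J mice aged 10 weeks and fed a normal diet. In the PPE group, porcine pancreatic elastase in saline (1.5 U/mL), an elastin-digesting enzyme used to induce abdominal aortic aneurysms, was infused into the ligated infrarenal segment at 100 mmHg over 5 min. Sham mice received saline by the same surgery, so injury by catheter and ligature was common to both groups. Each group had 5 mice, harvested at 7 days, with 1 aorta and no pooling per array. RNA of the whole segment (500 ng, red dye) was hybridised against a universal mouse reference (green dye), and every value below is a log2 ratio of aorta over reference unless another scale is named. A difference of 1 on this scale is a doubling, and an SE or 95% confidence interval of a difference is that of the limma fit.

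The tissue label was compared with marker genes. Smooth muscle markers stood well above the reference in sham, with a list mean of 3.41 to 4.45 over the 5 arrays, and the endothelial list lay between 2.36 and 3.36. In the red channel, between 37.6% of spots (sham 5) and 65.8% (PPE 1) exceeded background clearly, and the groups overlapped (exact two-sided permutation p = 0.484). Sham 1 shared slide 1 with PPE 1 and PPE 2. Sham 2 and 3 shared slide 2 with PPE 3 and 4, and the remaining 3 arrays lay on a slide each. Within-slide differences are therefore given for both shared slides. B cell markers were highest on sham 3 (1.59) and PPE 2 (2.53), which exceeded the range of the other sham arrays (0.13 to 0.53) and of the other PPE arrays (0.09 to 0.98). In whole tissue, fewer cells of a type and less RNA per cell cannot be told apart.

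Of the 8 members that could be tested, 6 were higher in PPE at an adjusted p under 0.01 in limma, a linear model with moderated errors (Vcam1, Icam1, Selp, Alcam, F11r and Selplg), against 13.8% of the 22520 gene names tested. None was lower, against 9.96% of all names, while 1 member (Mcam) was lower at an unadjusted p under 0.05 and SAM, the permutation-based test of the study, also called 0 lower. These counts rest on loess normalization: with arrays centred on their median instead, 1 of the 6 calls held (Selplg), and 408 names of all were higher and 8 lower. The groups did not overlap, with PPE above sham, in 5 of the 8 members and in 14.9% of all names. The reverse, PPE wholly below sham, was seen in 0 members and in 10.5% of names. Counted by probe, 8 of the 11 tested member probes were higher (12.8% of all 30836 probes), 1 was lower (9.15% of all probes) and 2 did not pass. The ninth member, Sele, was too dim in sham to be tested and is given as a bound.

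**Figure D1:**
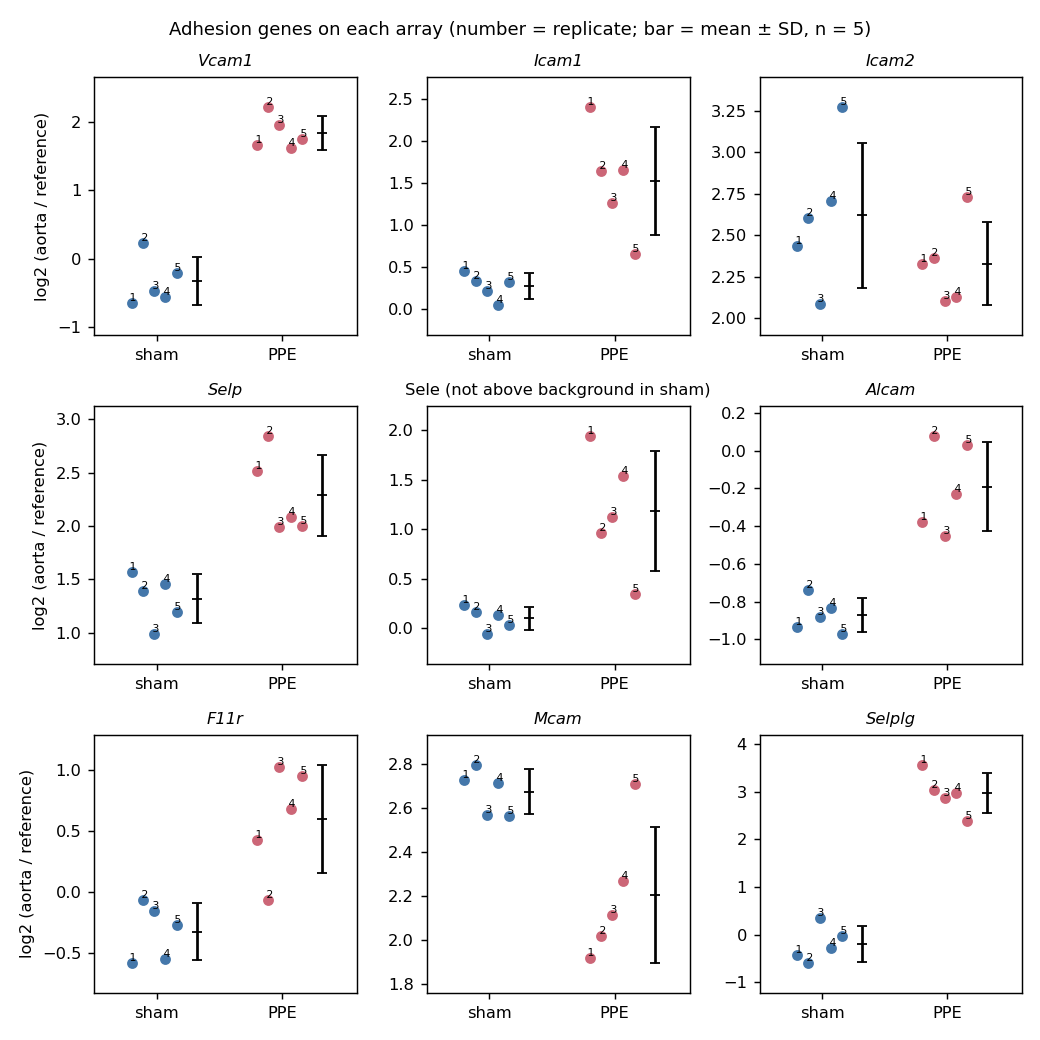
Log2 ratio of aorta over reference (vertical axis, scaled for each gene) for the 9 adhesion genes on the 5 sham and 5 PPE arrays, with replicate numbers beside the points and the mean ± SD (n = 5) as a bar. Vcam1, Icam1, Selp, Alcam and Selplg have no overlap between the groups. F11r overlaps only at sham 2 and PPE 2, and Icam2 and Mcam overlap. Sele was not above background on any sham array.

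The selectin promoters and that of Icam1 are shown because these genes are known to respond to cytokines and each window holds at least 1 of the motifs searched. They are the 250 bases before the gene start from RefSeq (GRCm38.p6), which held 6 of the 9 members: Icam1, Selp, Sele, Alcam, Mcam and F11r. Capitals mark 3 motifs, chosen after the sequences were seen: GGANATTCC (an NF-kB type, both strands), TGANTCA (an AP-1 type, which reads alike on both strands) and TATAAA (the core promoter box, plus strand). No motif match overlapped another.
Icam1 promoter, chr9:21015690-21015939, plus strand: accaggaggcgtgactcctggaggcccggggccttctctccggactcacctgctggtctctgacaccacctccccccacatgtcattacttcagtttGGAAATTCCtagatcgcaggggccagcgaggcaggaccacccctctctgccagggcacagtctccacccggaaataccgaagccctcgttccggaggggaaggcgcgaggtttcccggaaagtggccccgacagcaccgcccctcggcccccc
Sele promoter, chr1:164047984-164048233, plus strand: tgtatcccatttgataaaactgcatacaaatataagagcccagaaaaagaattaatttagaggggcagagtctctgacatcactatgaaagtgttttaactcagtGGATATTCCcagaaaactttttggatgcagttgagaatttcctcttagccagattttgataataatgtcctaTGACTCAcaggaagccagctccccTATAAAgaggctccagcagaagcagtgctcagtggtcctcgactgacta
Selp promoter, chr1:164115014-164115263, plus strand: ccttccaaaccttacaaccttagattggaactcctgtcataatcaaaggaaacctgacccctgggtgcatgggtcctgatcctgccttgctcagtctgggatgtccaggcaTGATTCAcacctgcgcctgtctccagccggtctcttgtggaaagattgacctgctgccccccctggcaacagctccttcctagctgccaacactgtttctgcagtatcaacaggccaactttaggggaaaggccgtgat
The Icam1 window held GGAAATTCC at 153 to 145 bases before the start. The Sele window held GGATATTCC at 145 to 137 bases, TGACTCA at 73 to 67 bases and TATAAA at 49 to 44 bases before the start. The Selp window held TGATTCA at 139 to 133 bases, and that of F11r held TGAGTCA at 109 to 103 bases. None of these letters was found in the windows of Alcam or Mcam. Among all 32851 promoter windows of this length, GGANATTCC was present in 0.819%, TGANTCA in 6.75% and TATAAA in 7.59%. These are matches of letters only, and binding was not measured.

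Selp encodes P-selectin, which endothelial cells and platelets store in granules and move to their surface on activation. Its probe (chr1:166079660-166079719, plus strand, mm9) was printed in 10 spots per array. On sham arrays 1 to 5 the Selp log2 ratios were 1.57, 1.39, 0.99, 1.46 and 1.19. On PPE arrays 1 to 5 they were 2.52, 2.85, 1.99, 2.09 and 2.0. The highest sham array, sham 1, lay below the lowest PPE array, PPE 3, so the groups did not overlap. The mean Selp ratio rose from 1.32 ± 0.23 (SD, n = 5) to 2.29 ± 0.38 (SD, n = 5), a log2 fold change of 0.97 (limma, SE 0.18, adjusted p = 0.00163), or 1.96-fold. The 7 to 10 spots of Selp kept on an array had an SD of 0.08 to 0.32, which is technical spread within an array and not that between mice. On slide 1 the PPE minus sham difference was 1.11, and on slide 2 it was 0.85. The call was lost with the ratio of the deposited LogRatio, where the difference fell to 0.52 (limma adjusted p = 0.0538), and with the authors' value table (0.52, adjusted p = 0.0537). Since platelets also make Selp, their markers are set beside it. Of 10 platelet and megakaryocyte genes, 0 were higher or lower by limma (1 higher at an unadjusted p under 0.05, 0 by SAM), with list means of 0.09 to 1.64 in sham and 0.02 to 1.73 in PPE.

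Sele encodes E-selectin, made by endothelial cells after cytokine stimulation. Its probe (chr1:165987726-165987785, plus strand, mm9) was not well above background in red on any sham array, and was above it on 4 of 5 PPE arrays, all but PPE 5. The reference was not above background for Sele on any array. The log2 ratios on sham arrays 1 to 5 were 0.24, 0.16, -0.06, 0.13 and 0.03, and those on PPE arrays 1 to 5 were 1.94, 0.96, 1.13, 1.54 and 0.35. Since the sham arrays and the reference were at background, these ratios give no order or size for sham. In the red channel Sele was at least 1.85-fold higher in PPE: the PPE mean of 7.24 (log2 red signal) was set against a bound of 6.35 for sham, where the measured mean was 6.21. Sele was outside the main test by its signal, and a limma fit with no filter on dim probes gave it an adjusted p of 0.00858. The size of the difference between group means depended on how background was treated, from 1.08 on the scale used here to 2.13 with no offset and 3.51 with the deposited LogRatio.

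Among the 7 tested vessel-side members, Vcam1 had the largest change. It encodes VCAM-1, which binds the leukocyte integrins α4β1 and α4β7 and is also made by activated smooth muscle cells and macrophages. The brighter of its probes (chr3:115813216-115813275, minus strand, mm9) read -0.64, 0.23, -0.47, -0.55 and -0.21 on sham arrays 1 to 5. It read 1.66, 2.22, 1.96, 1.62 and 1.75 on PPE arrays 1 to 5. The gap between the groups, from sham 2 to PPE 4, was wider than the spread within either. The mean rose from -0.33 ± 0.35 to 1.84 ± 0.25 (SD, n = 5 each), a log2 fold change of 2.17 (limma, SE 0.18, adjusted p = 4.98e-06), or 4.51-fold. Slide 1 gave a difference of 2.58, and slide 2 one of 1.92.

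The second Vcam1 probe lay 15737 bases away (chr3:115828953-115829012). It read -0.71, 0.26, -0.55, -0.81 and 0.09 in sham and 0.90, 1.26, 0.68, 0.93 and 0.88 in PPE. Here too no arrays overlapped, and the call was kept with a smaller size: 1.28 (limma, SE 0.21, adjusted p over all probes = 0.000744). The probes thus differed by 0.90 in log2 fold change. Which transcript forms each probe reads was not tested.

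Icam1 encodes ICAM-1, the ligand of the β2 integrins LFA-1 and Mac-1, which leukocytes carry as well as endothelium. Its probe (chr9:20832290-20832349, plus strand, mm9) read 0.45, 0.33, 0.21, 0.04 and 0.32 on sham arrays 1 to 5. On PPE arrays 1 to 5 it read 2.40, 1.64, 1.26, 1.65 and 0.65. PPE 5 came close to the sham arrays, which were tightly grouped, and the 5 PPE arrays spread over a wide range. Icam1 rose by 1.25 on the log2 scale (limma, SE 0.26, adjusted p = 0.00284, 2.38-fold), from 0.27 ± 0.16 to 1.52 ± 0.64 (SD, n = 5 each). It was 1.57 on slide 1 and 1.18 on slide 2. Without sham 3 and PPE 2, the arrays with the most B cell signal, the size was 1.21 and the call was lost (limma adjusted p = 0.0165).

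Icam2, a ligand of LFA-1 that resting endothelium carries steadily, did not pass the test. Its probe (chr11:106238971-106239030, minus strand, mm9) gave ratios of 2.08 to 3.27 in sham (median 2.60) and 2.10 to 2.73 in PPE (median 2.33), so the ranges overlapped almost fully. The Icam2 difference was -0.29 (limma, SE 0.20, adjusted p = 0.314), with a 95% confidence interval from -0.74 to 0.16. Increases as large as those of Vcam1, Icam1 or Selp lie outside this interval, while with median centring in place of loess the sign turned (0.39, adjusted p = 0.666).

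Alcam encodes CD166, a cell-cell adhesion protein that binds CD6 on T cells. Its probe (chr16:52268908-52270785, minus strand, mm9) spans a pair of separate genomic stretches. On sham arrays 1 to 5 it read -0.93, -0.74, -0.88, -0.83 and -0.97, and on PPE arrays 1 to 5 it read -0.38, 0.08, -0.45, -0.23 and 0.03. The groups did not overlap, and the sham arrays lay within a narrow band. Alcam rose by 0.68 on the log2 scale (limma, SE 0.12, adjusted p = 0.00127, with a 95% confidence interval from 0.41 to 0.95). It was 0.78 on slide 1 and 0.47 on slide 2, and with slide as a fixed block it was 0.59 and lost the call (limma adjusted p = 0.0181).

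Mcam encodes CD146, an adhesion protein of endothelial cells, pericytes and smooth muscle cells, and was the one member whose probes both pointed down. The brighter probe (chr9:43950664-43950723, plus strand, mm9) read 2.73, 2.80, 2.57, 2.71 and 2.56 in sham and 1.92, 2.01, 2.11, 2.27 and 2.71 in PPE. PPE 5 lay among the sham arrays, while the other 4 PPE arrays lay below all of them. The log2 fold change of -0.47 ± 0.15 (SE) did not pass (limma adjusted p = 0.0266). The second probe, 1279 bases away (chr9:43949385-43949444), read 3.48, 2.83, 2.34, 2.97 and 2.39 in sham and 2.05, 2.35, 1.47, 1.73 and 0.98 in PPE. There PPE 5 was the lowest of all arrays, and the change of -1.08 ± 0.28 (SE) passed over all probes (limma adjusted p = 0.00996). The brighter probe also passed without PPE 5 (-0.60, limma adjusted p = 0.00133), with slide as a fixed block (-0.60, adjusted p = 0.00623) or as a random block (-0.51, adjusted p = 0.00661), and the mean of both probes passed too (-0.78, adjusted p = 0.0012). Within slide 1 the brighter probe differed by -0.76, and within slide 2 by -0.49. Its mean log2 red signal after loess and scaling between arrays (Aquantile) was 14.72 in sham and 14.69 in PPE. Both steps also use the green channel, so this signal is no reading apart from the reference. For Selp the same signal rose by more than the ratio did, from 8.73 in sham to 10.42 in PPE. With median centring in place of loess the sign of the ratio difference of the brighter Mcam probe turned (0.27, limma adjusted p = 0.776). Markers of other cells that make Mcam were set beside it. Of 10 smooth muscle genes 8 were lower by limma, with list means of 3.41 to 4.45 in sham and 1.84 to 2.98 in PPE. Of 7 pericyte genes 1 was lower, and of all names 9.96% were lower. The part of these cells in the Mcam values was not tested.

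**Figure D2:**
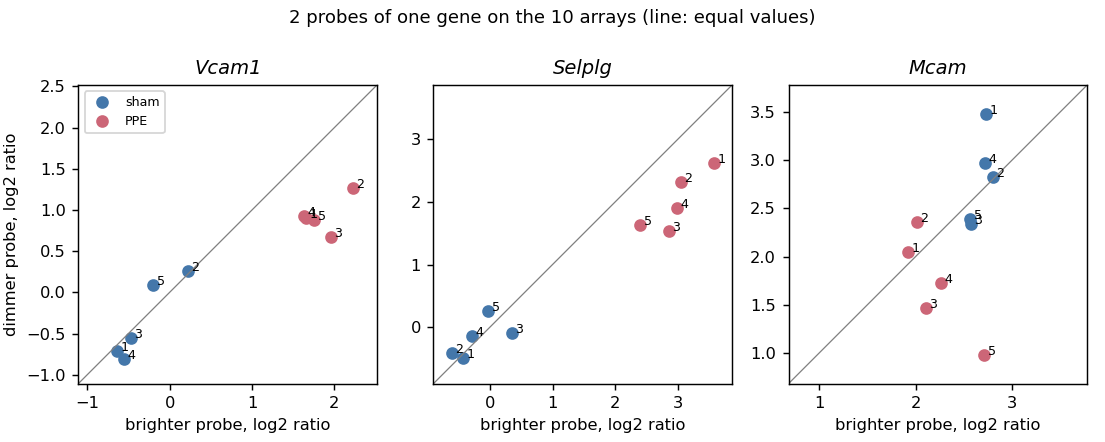
Log2 ratios of aorta over reference on the brighter probe (horizontal axis) and the dimmer probe (vertical axis) of Vcam1, Selplg and Mcam, 1 point for each of the 10 arrays with its replicate number. The line marks equal values. For Vcam1 and Selplg, PPE arrays are higher on both probes and lie below the line. For Mcam, PPE 5 is low on the dimmer probe (0.98) and among the sham arrays on the brighter one (2.71).

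F11r encodes JAM-A, a tight junction protein of endothelial and epithelial cells that is also found on platelets and leukocytes and binds LFA-1. Its probe (chr1:173393848-173393907, plus strand, mm9) read -0.59, -0.07, -0.16, -0.55 and -0.27 on sham arrays 1 to 5. On PPE arrays 1 to 5 it read 0.43, -0.07, 1.02, 0.68 and 0.95. PPE 2 stood at the level of sham 2 and the other 4 PPE arrays lay above every sham array. F11r rose by 0.93 on the log2 scale (limma, SE 0.20, adjusted p = 0.00406, 1.90-fold), with 0.76 on slide 1 and 0.96 on slide 2. The call did not hold when sham 1, sham 4, PPE 3 or PPE 4 was left out, with limma adjusted p = 0.0122, 0.0132, 0.0118 and 0.0114 and sizes of 0.82 to 0.91.

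Selplg, the leukocyte member, had the largest change of the 8 tested members. It encodes PSGL-1, the ligand by which neutrophils, monocytes and T cells bind P-selectin, and also E-selectin once it carries the right sugars. The brighter probe (chr5:114267807-114267834, minus strand, mm9) read -0.42, -0.60, 0.35, -0.28 and -0.02 on sham arrays 1 to 5. On PPE arrays 1 to 5 it read 3.56, 3.04, 2.86, 2.98 and 2.39. The position listed for this probe is shorter than that of any other member probe. Whether it covers the whole probe was not tested. The lowest PPE array exceeded the highest sham array by more than the range of either group. Selplg rose by 3.16 on the log2 scale (limma, SE 0.23, adjusted p = 1.92e-06), or 8.95-fold, with 3.73 on slide 1 and 3.04 on slide 2. The second probe, 1399 bases away, gave 2.17 (limma, SE 0.22, adjusted p over all probes = 2.11e-05), with sham arrays from -0.49 to 0.26 and PPE arrays from 1.54 to 2.61. As for Vcam1, both probes rose and their sizes differed, here by 0.99.

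The adhesion genes of the vessel wall were next set beside the leukocyte genes that bind them. Of the 8 vessel-side members, 7 were tested and 5 were higher, with a median log2 fold change of 0.93. Of 12 leukocyte counter-receptor genes listed besides Selplg, 11 were tested and 8 were higher, with a median of 2.29. Over all 22520 names 13.8% were higher and the median was 0.02. In 8 of the 11 every PPE array exceeded every sham array, against 14.9% of all names with PPE above sham. With median centring in place of loess 2 counter-receptors were higher. With Selplg the leukocyte list came to 12 tested genes with 9 higher and a median of 2.38. The log2 fold change of Vcam1 was exceeded by 6 of the 11 counter-receptors, and that of Icam1 by 8. No counter-receptor was lower by limma (1 at an unadjusted p under 0.05, 0 by SAM). These counts and medians take each gene by its brightest tested probe. Counted by probe, 13 of the 20 tested counter-receptor probes were higher and 0 were lower. Of all 30836 probes, 12.8% were higher and 9.15% lower.

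**Figure D3:**
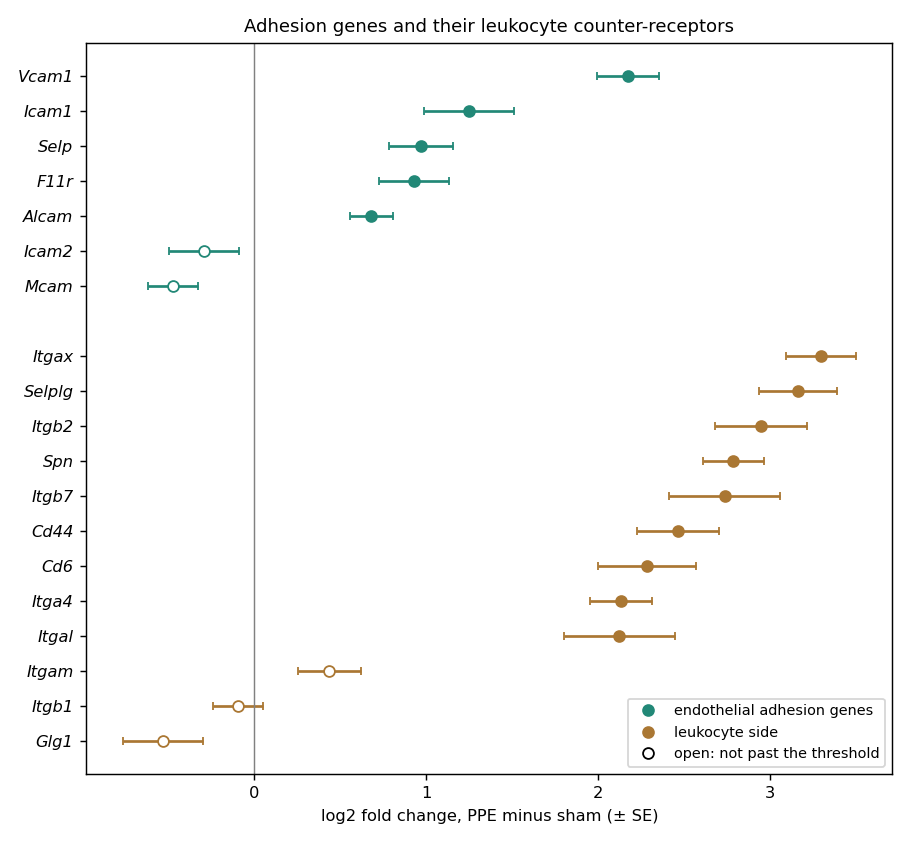
Log2 fold change, PPE minus sham, with its SE from the limma fit (horizontal axis), for the 7 tested vessel-side adhesion genes (green) and 12 tested leukocyte genes (brown, Selplg included). Filled points passed a limma adjusted p under 0.01. On the vessel side Vcam1 is the highest at 2.17, and the leukocyte genes that passed lie between 2.12 and 3.29.

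The partners of Vcam1 are integrin pairs of α4 (Itga4) with β1 (Itgb1) or β7 (Itgb7). Itga4 ranged from -0.02 to 0.38 in sham and from 1.89 to 2.88 in PPE, a log2 fold change of 2.13 (limma, SE 0.18, adjusted p = 5.55e-06). Itgb7, whose protein is known mainly from lymphocytes, rose by 2.74 (limma, SE 0.32, adjusted p = 5.83e-05). Itgb1, which most cells make, ranged from 0.61 to 1.12 in sham and 0.27 to 0.93 in PPE (-0.10, limma adjusted p = 0.662), and its other probe did not pass either (-0.56, adjusted p = 0.101). The α4 and β7 genes thus rose while β1 did not pass.

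The partners of Icam1, Icam2 and F11r are β2 integrins. Itgb2, their common β chain, ranged from -1.24 to -0.56 in sham and from 1.30 to 2.79 in PPE, and rose by 2.95 (limma, SE 0.26, adjusted p = 8.48e-06). Itgax, the α chain typical of dendritic cells and macrophages, rose by 3.29 (limma, SE 0.20, adjusted p = 8.16e-07). Itgal, the α chain of LFA-1, rose by 2.12 (limma, SE 0.32, adjusted p = 0.000347), and its 3 probes gave 2.12, 1.97 and -0.02, the last of which did not pass (adjusted p over all probes = 0.926). Itgam, the α chain of Mac-1, did not pass on its brightest probe (0.44, SE 0.18, limma adjusted p = 0.0884) while another probe gave 2.47 (adjusted p over all probes = 6.42e-05) and the third 0.05 (adjusted p = 0.762). Itgad was too dim to be tested. Probes of 1 gene gave different calls in 3 of the 6 counter-receptors with several probes, and these were Itgal, Itgam and Cd6.

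Most of the listed selectin ligands rose as well. Cd44, an E-selectin ligand that many cell types make, rose by 2.46 (limma, SE 0.24, adjusted p = 1.44e-05), and its 3 probes, all higher, gave 2.46, 2.18 and 0.90. Spn, the leukocyte sialomucin CD43, rose by 2.79 (limma, SE 0.18, adjusted p = 9.61e-07), and by 1.15 on its other probe. Cd6, the T cell receptor for Alcam, rose by 2.29 on its brighter probe (SE 0.28, limma adjusted p = 8.77e-05), and the other probe gave 0.20 (adjusted p = 0.111). Glg1, a Golgi protein that includes an E-selectin ligand form, did not pass (-0.53, SE 0.23, limma adjusted p = 0.0995). Selectins recognise PSGL-1 only after fucose, sialic acid and sulfate have been added. Of 9 tested genes of that synthesis 5 were higher, against 13.8% of all names, with a median of 0.86. The fucosyltransferases Fut7 and Fut4 rose by 1.96 and 1.92 (limma adjusted p = 0.000299 and 0.000298), and the other 3 by less than 1. A second Fut7 probe did not pass (0.50, adjusted p over all probes = 0.0402), nor did a second probe of the galactosyltransferase gene B4galt1 (0.49, adjusted p over all probes = 0.15). Gcnt1 went the other way. Its brighter probe did not pass (0.86, limma adjusted p = 0.0119), while its second probe was higher (1.18, adjusted p over all probes = 5.66e-05).

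Markers of the cells that carry these genes moved with the groups. On the same scale, 10 of 12 macrophage genes, 10 of 11 neutrophil genes and 6 of 9 tested T cell genes were higher by limma. Their median log2 fold changes were 2.20, 3.11 and 2.11. Of all 22520 names, 13.8% were higher. Of the 10 neutrophil genes, Mmp8 and Ngp were above background on 0 sham arrays, and Cxcr2 and Ltf on 1, so these entered the test through the PPE arrays. The neutrophil count, median and list means include them. The other 6 were above background on 3 or more sham arrays. Macrophage list means were 0.69 to 1.09 in sham and 2.64 to 3.72 in PPE, over the 11 genes measured on every array. Those of neutrophils were 0.23 to 0.35 and 2.55 to 3.87. T cell list means were -1.15 to 0.10 and 0.76 to 1.84. None of the 8 tested B cell genes passed by limma (1 higher at an unadjusted p under 0.05, 0 by SAM). The part of these cells in the changes of Selplg, Icam1, F11r and Vcam1 was not tested.

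**Figure D4:**
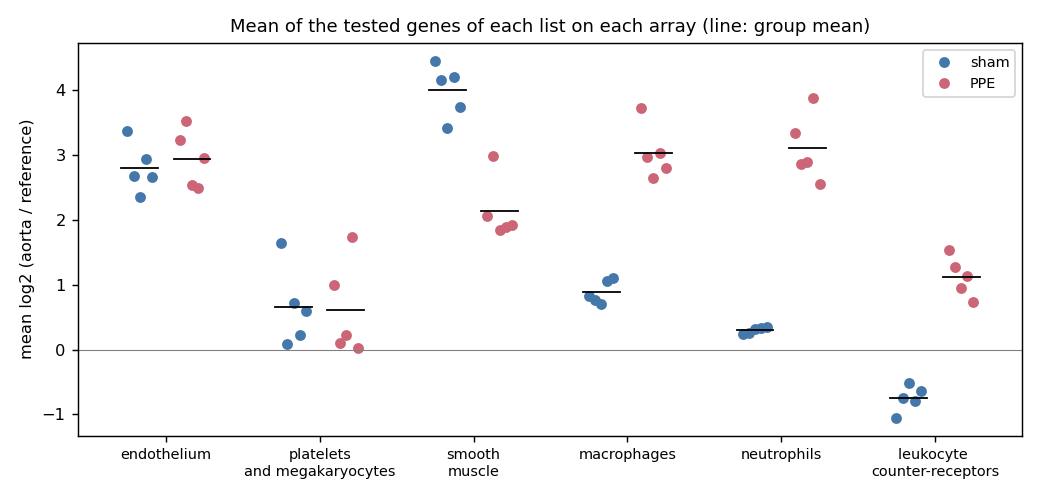
Mean log2 ratio of aorta over reference (vertical axis) over the tested genes of 6 lists that were measured on all arrays, 1 point per array, with a line at the mean of each group of 5. Endothelial and platelet lists overlap between sham and PPE. Smooth muscle is lower in every PPE array (1.84 to 2.98) than in any sham array (3.41 to 4.45), and macrophage, neutrophil and counter-receptor lists are higher in every PPE array.

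Endothelial markers, in contrast, did not separate the groups. Of 14 genes (Pecam1, Cdh5, Tek, Tie1, Kdr and others) 0 were higher or lower by limma, 1 was higher and 1 lower at an unadjusted p under 0.05, and SAM called 0. Sham arrays had a list mean of 2.80 ± 0.38 and PPE arrays one of 2.94 ± 0.45 (SD, n = 5 each, exact two-sided permutation p = 0.603). Each member was therefore also read relative to the endothelial list mean of its own array. Vcam1 rose relative to it by 2.03 (limma adjusted p = 1.07e-06), Selplg by 3.02 (adjusted p = 1.56e-10) and Icam1 by 1.11 (adjusted p = 0.00694), where 6.63% of all names were higher and 6.81% lower. Subtracting the same value from every gene ties the genes of an array together, so exact two-sided permutation tests of the 8 single values are given too, the smallest possible p being 0.00794. The exact permutation p was 0.00794 for Vcam1, Selplg and Selp, 0.0159 for Icam1, 0.0714 for Alcam, 0.103 for Mcam, 0.135 for F11r and 0.167 for Icam2. Selp had a relative change of 0.83 that did not pass limma (adjusted p = 0.0343) and passed with the median of the list in place of its mean (adjusted p = 0.00132). F11r (0.79, limma adjusted p = 0.109), Alcam (0.54, adjusted p = 0.264), Icam2 (-0.43, adjusted p = 0.435) and Mcam (-0.61, adjusted p = 0.199) did not pass.

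Of 19 other adhesion and junction genes tested, 2 were higher, 3 were lower and 14 did not pass, with a median of 0.13. These counts are near the shares over all names, 13.8% higher and 9.96% lower. Those higher with a change above 1 were Pvrl2, which encodes the junction protein nectin-2, with a log2 fold change of 1.47 (limma adjusted p = 0.000122) and 0.64 on its other probe, and Madcam1, the mucosal ligand of α4β7, with 1.26 (adjusted p = 3.75e-05). The lower genes were Ncam1, a neural and muscle adhesion gene (-2.23, adjusted p = 1.92e-06, with -1.47 and -0.63 on its other probes), Cd99l2, which acts in leukocyte passage through endothelium (-1.30, adjusted p = 0.00177), and the F11r relative Jam3 (-0.79, adjusted p = 0.00191). Pecam1 (-0.36, adjusted p = 0.25) and Cdh5 (1.17, adjusted p = 0.0167), the defining genes of endothelial junctions, did not pass.

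Cytokines known to induce Vcam1, Icam1, Selp and Sele were read on the same arrays. Of 8 listed, 5 were bright enough to test. They passed the filter on dim probes mainly through the PPE arrays, all 5 of which were above background for Il1b, Ifng, Tnf and Il6, so no count of the list is read. Of the 5 sham arrays, 2 were above background for Il1b, 2 for Tnf and 1 for Ifng, and the sham level of these genes is uncertain. Il1b rose by 5.80 (limma, SE 0.23, adjusted p = 1.54e-07), Ifng by 2.82 (SE 0.38, adjusted p = 0.000147) and Tnf by 2.18 (SE 0.32, adjusted p = 0.000292). Since the filter favoured genes high in PPE, these sizes and p-values are given as a description only. Il6 was not well above background on any sham array and was at least 16.0-fold higher in PPE. Lta did not pass (0.80, adjusted p = 0.0436), and Il1a, Il4 and Il13 were too dim to test. Of 6 proteases known to cut adhesion molecules from the cell surface, 3 were higher: Adam8, a protease of myeloid cells (4.10, adjusted p = 5.49e-06), Mmp9 (1.85, adjusted p = 0.00354) and Adam10 (1.19, adjusted p = 4.71e-05). Adam17, a sheddase of many cell surface proteins, did not pass (0.46, adjusted p = 0.0244). The share of all names that were higher was 13.8%.

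For each tested member, the gene name with the most similar profile over the 10 arrays was found among 14258 names that match a RefSeq symbol. Pearson's r is given as a description, since the arrays share the group difference and array quality. Vcam1 was most like Tmem176b (r = 0.985), Icam1 like Acp2 (0.990), Selp like Ppfia4 (0.979) and Alcam like Vsig8 (0.976). F11r was most like Nln (0.973), Mcam like Gss (0.965) and Icam2 like Bdh2 (0.964). Selplg had the closest match of all members, Irf5, a transcription factor of myeloid and B cells (0.997), whose own log2 fold change was 2.87 (limma adjusted p = 1.4e-06). Arrays of a group were ordered differently by different members: PPE 5 was the lowest PPE array for Icam1, Sele and Selplg, while PPE 2 was the lowest for F11r and the highest for Vcam1 and Selp.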

How the data were processed

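The authors hybridised infrarenal aortic RNA (red, Cy5) and a universal mouse reference (green, Cy3) to 2-colour Agilent 8x60K arrays without dye swap, with spots read by Feature Extraction 10.7.3.1 from Agilent (per the file headers). Per the study's methods, poorly hybridised arrays and others picked out by clustering were removed; which ones is not stated. The deposited mean spot signal and median local background are each a linear intensity, and deposited flags (0 or 1) mark spots above background, saturated or outlying. LogRatio, a deposited log10 value of red against green, served as an alternative. The authors' value table is on a log2 scale and equalled processed red over processed green on 100% of spots (tolerance 1e-04).

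Background correction by normexp (offset 50, which shrinks log ratios of dim probes) and loess within arrays were run with limma 3.58.1 (R 4.3.3). Control and outlier spots (176 to 331 per array) were left out, spots of a probe were averaged, and no spot was saturated. Probes entered the test when flagged well above background in red on 5 or more of the 10 arrays (by a spot share of 0.5 where a probe had several). A gene is a gene name of the files, given by its brightest tested probe, and 22520 names were tested with lmFit and eBayes, two-sided and unpaired, with Benjamini-Hochberg adjustment and a threshold of 0.01. Adjusted p-values are those of limma over all names, or over all probes where a second probe is given. The unpaired 2-class test at this threshold follows the study, whose tool, SAM, was written anew as an alternative. Values relative to endothelium subtract the list mean of each array. A gene not above background in a group has a bound from red signals after loess and Aquantile, where each dim array counts at its own signal or at the lowest signal above background, whichever is greater. Named were all 9 members with every probe, list genes called with a log2 fold change above 1 in size, the integrins that pair to bind members, Cd44 and the name most like each member. Members and lists were chosen with earlier results of these data known. A gene of the counter-receptor list is not reported here and was left out of its counts. Values of other list genes, and the alternative of taking the second probe, were picked after values were seen.

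Probe positions are those of the files on mm9, and exons and UTRs were not annotated here. Promoters are from RefSeq, GRCm38.p6. On simulated data (22489 genes, 200 changed), limma found 95.5% of genes changed by 2 on the log2 scale, 59.7% of those changed by 1 and 11.9% of those changed by 0.5, and 2 of its 113 calls were false. That simulation had independent noise and few changed genes, all raised, while 3116 names were higher and 2243 lower in the data. Its rates therefore need not hold for these arrays. Replicate numbers did not pair the samples. With 5 arrays per group, precision is limited by their number.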

Additional observations from a re-analysis of the deposited data

How the results depend on the processing

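Centring arrays on their median, without loess, moved the median of all names to 0.41 and left 408 names higher and 8 lower, against 3116 and 2243 with loess, with 1 member higher (Selplg, limma adjusted p = 0.00698) and 2 counter-receptors higher. Under it Vcam1 was 2.76 (adjusted p = 0.0148), Icam1 1.31 (adjusted p = 0.144), Selp 1.13 (adjusted p = 0.249), Alcam 1.14 (adjusted p = 0.182) and F11r 1.57 (adjusted p = 0.0485). The sign of Icam2 turned to 0.39 (adjusted p = 0.666) and that of Mcam to 0.27 (adjusted p = 0.776); relative to the shift of all names they were -0.02 and -0.14. The cause was not tested. The number of members called lower went from 0 to 1, which was Mcam, with the mean of all tested probes, slide as a fixed or random block, without PPE 5, and without sham 5 and PPE 5 (-0.62, adjusted p = 0.00176). With scan day as a fixed block 1 counter-receptor was lower (Glg1, -0.67, adjusted p = 0.00569). F11r lost its call without sham 5 and PPE 5 (0.85, adjusted p = 0.0149). Leaving out 1 array at a time gave 2512 to 3615 names higher and 1754 to 2352 lower, 5 to 6 members higher, 0 to 1 lower, and 8 counter-receptors higher each time. The same replicate numbers showed correlations from -0.30 to 0.52, so they do not pair the arrays; with a replicate block 3022 names were higher and 2283 lower, 6 members and 8 counter-receptors were higher, and no member call changed. Vcam1, Icam1, Selp, Alcam, F11r and Selplg kept their direction under every alternative run, and of these only Selplg kept its call throughout. With red signal above background for 37.6% to 65.8% of spots, Sele and other dim probes are limited by signal. The Sele difference was 1.08 with the offset and 2.13 without it, and that of Selp 0.97 and 0.85. Which size is nearer the true one was not tested.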

Other observations

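Glycam1, known like Madcam1 from the high endothelial venules of lymphoid tissue, was read array by array. Glycam1, which encodes a mucin-like glycoprotein, had log2 ratios of -0.07, 0.75, 3.50, 0.56 and -0.10 on sham arrays 1 to 5 and of 3.44, 5.20, 2.05, 2.95 and 1.59 on PPE arrays 1 to 5. Sham 3 and PPE 2 were the highest of their groups for Glycam1, as they were for the B cell markers. The difference between groups for Glycam1 was 2.12 ± 0.77 (SE) and did not pass (limma adjusted p = 0.0528). Glycam1 was singled out after its values were seen. Of other marker lists, 5 of 9 fibroblast genes were higher by limma, with a median of 1.21. Of 7 Schwann cell genes 1 was higher, with a median of 0.46. Over all names 13.8% were higher, so the Schwann cell count is near that share.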
